A study of Mus musculus with 6 samples.

Results

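Integrins are the adhesion receptors that hold blood cells to matrix and to other cells. The genes described here are the integrin alpha and beta chains and the cytoplasmic proteins that join their tails to actin. Members were chosen by name: probe sets of the array to which the platform's annotation gives exactly 1 gene symbol, that symbol being 1 of 36 listed genes. Of the 36, 34 were measured, with 82 probe sets, among 18193 genes and 45037 probe sets in all. Itga11 and Fermt1 had no probe set under this rule and are not analysed here.

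RNA came from bone marrow of adult female mice. One genotype was (AKR/J x FVB/NJ)F1, on 3 arrays, here AKR F1. The other was (DBA/2J x FVB/NJ)F1, also on 3 arrays, here DBA F1. Every animal therefore carries an FVB/NJ genome copy beside an AKR/J or a DBA/2J copy, and the arrays read the sum of both alleles. The comparison is of untreated marrow between these genotypes. Nothing in the labels says that the arrays of a group came from separate animals, so the p-values measure only the spread between these samples, which may be technical. Values are log2 expression as deposited, differences are AKR F1 minus DBA F1, and each gene was read from its brightest probe set, by the mean over the 6 arrays, unless another is named. A change in whole marrow can be one of RNA per cell or of the number of cells of a type, and these cannot be told apart here.

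As background, an integrin is a dimer of an alpha and a beta chain that is switched from a bent to an extended form. Talin and kindlin bind the beta tail to switch the receptor on, and the complex of the integrin-linked kinase (Ilk), PINCH (Lims1) and a parvin (Parva, Parvb, Parvg) then links it to actin, with paxillin (Pxn) as a scaffold. In marrow, the dimers of Itgb1 hold stem cells and precursors to stroma, those of Itgb2 serve leukocytes, and Itga2b with Itgb3 forms the fibrinogen receptor of megakaryocytes and platelets.

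The promoters of 4 chains are shown first, because they belong to pairs whose values lay apart below: Itgam and Itgax, neighbouring genes whose products both pair with Itgb2, and Itga5 and Itgb1, whose products form the fibronectin receptor. Each window holds 250 bases before and 50 after a RefSeq start, 5′ to 3′ in the gene's direction, from the GRCm38.p6 reference. Itgam is at chr7:128062390-128062689, plus strand. Itgax is at chr7:128129300-128129599, plus strand. Itgb1 is at chr8:128685404-128685703, plus strand, and Itga5 is at chr15:103366742-103367041, minus strand. Capitals mark AGGAAG (a core of sites for ETS factors such as PU.1, the myeloid regulator), GGGCGG (the GC box) and TATAAA, searched on both strands.
Itgam: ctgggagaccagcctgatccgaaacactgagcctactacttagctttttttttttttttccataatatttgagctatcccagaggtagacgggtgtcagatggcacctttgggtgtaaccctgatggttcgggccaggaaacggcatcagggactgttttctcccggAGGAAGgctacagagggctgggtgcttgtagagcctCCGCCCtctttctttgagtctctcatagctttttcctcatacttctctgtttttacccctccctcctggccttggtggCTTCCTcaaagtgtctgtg
Itgax: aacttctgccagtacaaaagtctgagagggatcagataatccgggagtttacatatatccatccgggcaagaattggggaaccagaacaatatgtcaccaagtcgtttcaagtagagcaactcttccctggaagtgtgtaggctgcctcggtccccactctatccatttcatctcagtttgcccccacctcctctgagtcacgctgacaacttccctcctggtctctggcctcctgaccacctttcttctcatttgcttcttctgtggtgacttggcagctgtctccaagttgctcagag
Itgb1: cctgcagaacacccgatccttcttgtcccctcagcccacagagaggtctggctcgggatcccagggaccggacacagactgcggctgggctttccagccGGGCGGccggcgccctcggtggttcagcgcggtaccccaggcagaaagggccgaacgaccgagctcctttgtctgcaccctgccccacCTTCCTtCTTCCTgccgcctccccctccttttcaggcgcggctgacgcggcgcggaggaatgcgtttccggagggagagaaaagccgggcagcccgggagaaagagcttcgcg
Itga5: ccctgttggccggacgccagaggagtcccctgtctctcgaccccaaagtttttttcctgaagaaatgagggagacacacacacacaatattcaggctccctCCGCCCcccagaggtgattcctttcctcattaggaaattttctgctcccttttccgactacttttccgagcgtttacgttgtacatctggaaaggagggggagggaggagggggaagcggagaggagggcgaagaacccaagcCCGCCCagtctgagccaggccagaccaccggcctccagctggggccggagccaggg
The Itgam window held 2 copies of AGGAAG and 1 GC box, the Itgax window none of these motifs. The Itgb1 window held 2 copies of AGGAAG, 1 GC box and 27 CpG dinucleotides, against a median of 7 CpG over all promoters. The Itga5 window held 2 GC boxes and no AGGAAG. Of 32851 windows of this length, 35.4% held AGGAAG, 35.7% the GC box and 13.6% TATAAA, and the 32 windows of 26 members held them in 16, 15 and 1. These letters are those of the C57BL/6J reference, and variants of the parental strains in promoters or under array probes were not analysed here.

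Of the 34 measured members 4 were higher in AKR F1 (Itga5, Itga9, Itgb4 and Parvg) and 4 were lower (Itga6, Itgam, Itgb1 and Lims1), at an adjusted p under 0.05 in limma. This is 23.5% of the members, against 15.2% of all 18193 genes, and 11.8% in each direction, against 9.2% of all genes higher and 6.04% lower. Brighter probe sets passed more often: among members above the median probe set 7 of 28 passed (25%), against 22.3% of all such genes, so the members' share lay near that of other genes of their brightness. The median difference was 0.16 over the members and 0.06 over all genes. The 3 arrays of 1 group lay entirely above those of the other in 13 members (38.2%), against 36.7% of all genes.

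**Figure D1:**
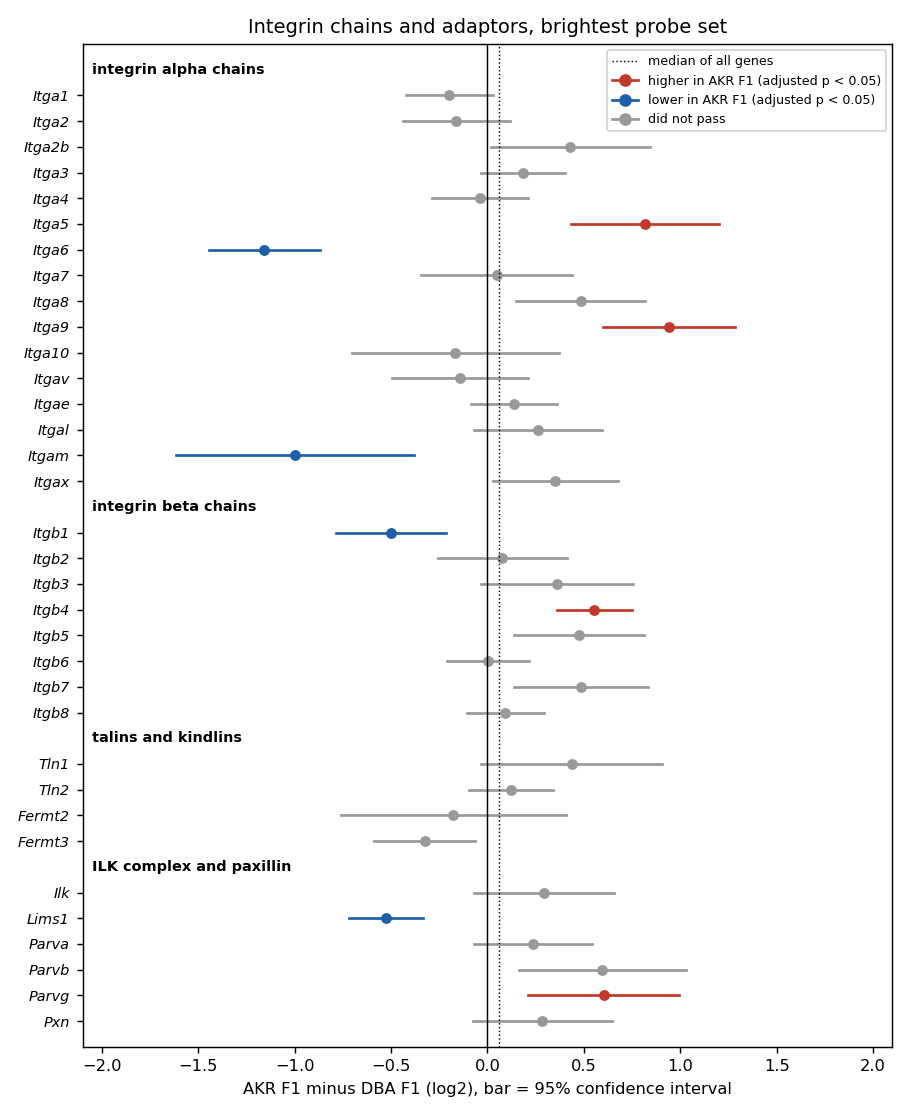
Difference between AKR F1 and DBA F1 (log2, horizontal axis) of the 34 measured members with its 95% confidence interval from limma, grouped by role, with the median of all genes as a dotted line. Itga6, at -1.16, and Itgam, at -0.999, lie farthest to the left and Itga9, at 0.94, farthest to the right.

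Which arrays were used moved this count. It became 4 without AKR F1 replicate 2 or without AKR F1 replicate 3, 5 without DBA F1 replicate 2 and 13 without DBA F1 replicate 1. The count of all genes, 2771 with every array, moved in the same direction in these fits. It became 685, 793, 1585 and 3248, in the same order. Without AKR F1 replicate 1 the members stayed at 8 while the count of all genes fell to 1396. With any 1 array removed Itga6, Itga9, Itgb4 and Lims1 still passed (6 of 6 fits), Itga5 in 4, Itgam and Parvg in 2 each and Itgb1 in 1. The groups also differed in the controls: the 3′ minus 5′ signal of actin and Gapdh, which grows as RNA loses its 5′ end, stood at 0.31, 0.89 and 0.73 in the AKR F1 arrays, in replicate order, and at 0.17, 0.28 and 0.25 in the DBA F1 arrays. The mean of 12 skeletal muscle markers ran from 6.94 to 8.11 in AKR F1 and from 8.87 to 11.76 in DBA F1, with 8 of the 12 lower in AKR F1 and none higher. The mean of the hybridization controls was at 10.08, 10.21 and 10.28 in AKR F1 and at 10.62, 11.03 and 10.69 in DBA F1. In none of these 3 measures did the groups overlap, so fits with them as covariates cannot tell them apart from the genotype. With the 3′ minus 5′ index as a covariate in limma no member passed (6 at an unadjusted p under 0.05), with the muscle mean Itga6 alone passed (14 unadjusted), and with the mean of the hybridization controls none did (9 unadjusted). In all 3 of these fits the 8 called members kept their sign, and the standard errors of the members grew to a median of 1.60, 1.81 and 2.41 times their value. Some of their differences shrank too: with the index Itgb1 went from -0.50 to -0.32 and Itgam from -0.999 to -0.17, and with the hybridization controls Itga6 went from -1.16 to -0.71 and Itga9 from 0.94 to 0.50. With the hybridization controls Itgam grew to -1.61.

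**Figure D2:**
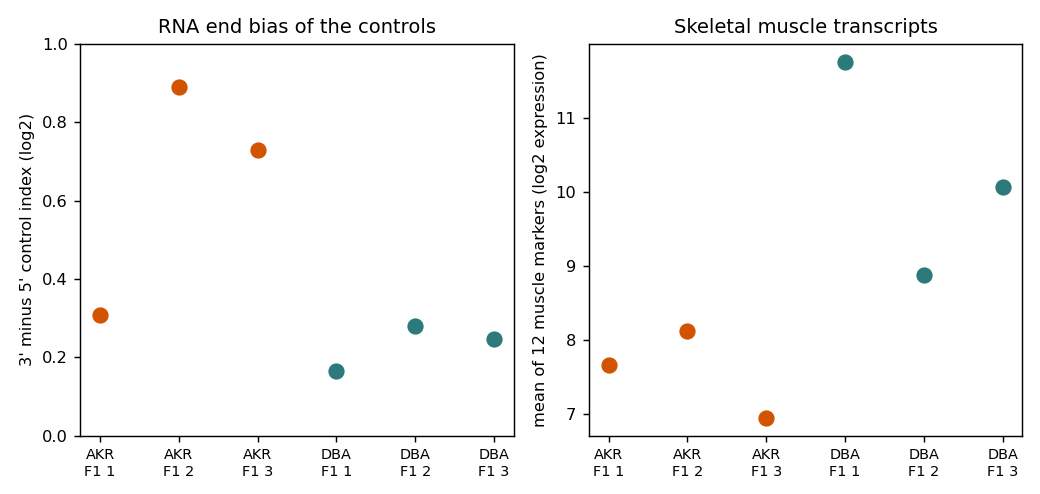
For each of the 6 arrays, the 3′ minus 5′ control index (left, log2) and the mean log2 expression of 12 skeletal muscle markers (right). AKR F1 replicates 2 and 3 stand highest on the left at 0.89 and 0.73, and DBA F1 replicate 1 stands highest on the right at 11.76.

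All 9 measured neutrophil markers and all 5 erythroid markers lay above the median probe set, as did all 12 muscle markers, which belong to a tissue other than marrow. Arrays correlated across probe sets, which are not independent, at 0.9936 to 0.9961 within AKR F1, 0.9906 to 0.9930 within DBA F1 and 0.9791 to 0.9880 between groups.

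Among the alpha chains that pair with Itgb1, Itga6 was lower in AKR F1 while Itga5 and Itga9 were higher. Itga6 makes the laminin receptor of stem cells, megakaryocytes and many epithelia. It was at 9.26, 9.32 and 9.38 in AKR F1 and at 10.20, 10.65 and 10.59 in DBA F1. The AKR F1 arrays lay close together and all far below DBA F1, a difference of -1.16 (SE 0.13, 95% interval -1.45 to -0.87, adjusted p = 0.0027 in limma), so that DBA F1 was 2.23-fold higher. The second Itga6 probe set had the same sign at -0.35, without overlap of the groups, and did not pass (adjusted p = 0.11 in limma). With the mean of both Itga6 was called at -0.75.

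Itgb1, the beta chain shared by the largest family of integrins, was lower in AKR F1 at each of its 3 brightest probe sets. At the brightest, AKR F1 was at 9.51, 9.17 and 9.41 and DBA F1 at 9.72, 9.83 and 10.05. The groups did not overlap, AKR F1 replicate 1 lying nearest to DBA F1, and the difference was -0.50 (SE 0.13, adjusted p = 0.032 in limma). At the second it was -0.63, with AKR F1 at 7.82, 7.75 and 7.85 and DBA F1 at 8.25, 8.55 and 8.51, and at the third -0.43. All 3 passed the test over probe sets (adjusted p = 0.039, 0.010 and 0.030 in limma). The other 3 Itgb1 probe sets lay below the lower quartile of probe sets, between 2.70 and 3.03, and differed by -0.06 to 0.06. With the mean of all 6 Itgb1 was called at -0.26. The third bears the suffix x, which marks probes that may also match other transcripts. Among the 82 member probe sets 4 bear it, including the brightest of Itgb5. Another 9 bear the suffix s, for probes shared by several transcripts, including the brightest of Itga5, Lims1 and Fermt3. What else these probes match was not analysed here.

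Itga5, whose product joins Itgb1 to bind fibronectin, went the other way. It was at 6.14, 6.44 and 6.36 in AKR F1 and at 5.75, 5.64 and 5.11 in DBA F1, which is 1.76-fold higher (difference 0.82, SE 0.17, adjusted p = 0.018 in limma). The groups did not overlap, and DBA F1 replicate 3 lay lowest. All 4 Itga5 probe sets had a positive difference, from 0.09 to 0.82, the other 3 without a call, and their mean was called at 0.37. Itga9, a receptor chain for tenascin, osteopontin and VCAM-1, was at 6.55, 6.65 and 6.84 against 5.82, 5.42 and 5.98, which is 1.92-fold higher (difference 0.94, SE 0.15, adjusted p = 0.0084 in limma). Its 2 dimmer probe sets, with means between 4.15 and 5.01, differed by -0.11 and 0.15 and did not pass, and with the mean of all 3 Itga9 was called at 0.33.

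**Figure D3:**
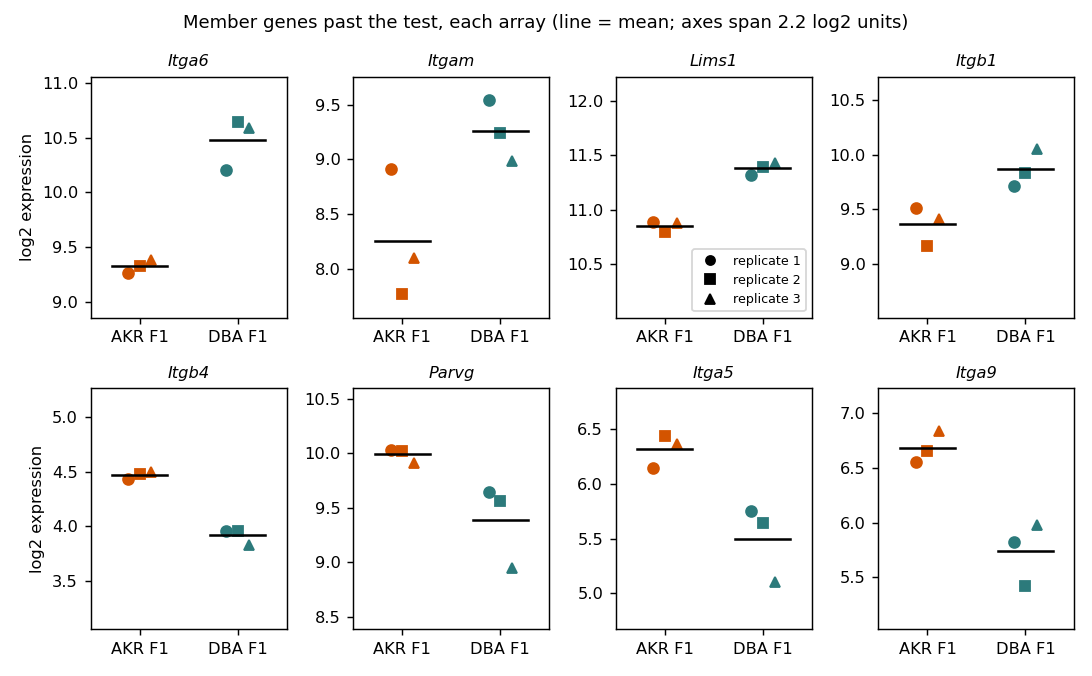
Log2 expression of the 8 members past the test in each array, with the group mean as a line and the marker shape giving the replicate number, all panels spanning the same range. The groups do not overlap in any panel, and in Itgam AKR F1 replicate 1, at 8.91, lies next to DBA F1 replicate 3, at 8.98.

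Itga4, the chain that binds VCAM-1 on stroma and holds lymphocytes and stem cells in marrow, gave different answers by probe set. At its brightest it was at 9.34, 9.49 and 9.58 in AKR F1 and at 9.47, 9.39 and 9.67 in DBA F1, overlapping groups with a difference of -0.04 (95% interval -0.29 to 0.21). The second differed by -0.04 as well. The third, however, was at 6.42, 5.96 and 6.67 against 7.86, 7.79 and 8.51, a difference of -1.71 (SE 0.23) that passed the test over probe sets (adjusted p = 0.0055 in limma). The next differed by -0.87, with AKR F1 at 6.63, 5.55 and 6.30 and DBA F1 at 7.10, 6.90 and 7.08, and did not pass (adjusted p = 0.051 in limma). With the mean of its 5 probe sets, all negative, Itga4 was called lower (difference -0.60, adjusted p = 0.015 in limma). No single difference is given for Itga4 as a gene.

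The other partners of Itgb1 did not pass at their brightest probe sets. Itga1 and Itga2, collagen receptor chains encoded side by side, differed by -0.20 and -0.16, and Itga3, a laminin receptor chain, by 0.18. A second Itga1 probe set, below the lower quartile of probe sets, differed by -0.35 without overlap of the groups (adjusted p = 0.051 in limma). With the mean of both Itga1 was called lower. Itga8, which binds nephronectin, differed by 0.48 (95% interval 0.15 to 0.82, adjusted p = 0.060 in limma), with 5.88, 6.04 and 5.59 against 5.59, 5.29 and 5.17. Itga7, the laminin receptor chain of muscle, differed by 0.05 and Itga10, a collagen receptor chain of cartilage, by -0.17. Both were highest in DBA F1 replicate 1, at 4.64 and 6.37, which is the array with the highest muscle markers. The mean of 9 stroma and bone markers was also highest there, at 11.08, against 9.89 to 10.43 in the other arrays. The part of either tissue was not tested. With the muscle mean as a covariate Itga7 and Itga10 differed by 0.55 and 0.44, and with the hybridization controls by -0.30 and -0.41, none of which passed.

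The leukocyte integrins share the beta chain Itgb2. Itgb2 itself was at 12.24, 11.91 and 12.10 in AKR F1 and at 12.27, 12.01 and 11.74 in DBA F1, overlapping groups with a difference of 0.08 (95% interval -0.26 to 0.41). Itgam, its partner on neutrophils, monocytes and macrophages and also a complement receptor chain, was at 8.91, 7.76 and 8.09 against 9.54, 9.24 and 8.98. AKR F1 replicates 2 and 3 lay far below the rest and replicate 1 just below DBA F1, a difference of -0.999 (SE 0.27, 95% interval -1.61 to -0.38, adjusted p = 0.041 in limma), so that DBA F1 was 1.998-fold higher.

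Itgam has 1 probe set, so no other can check it, and in the fit over all probe sets it did not pass (adjusted p = 0.050, just above the threshold, in limma). The arrays with the lowest Itgam, AKR F1 replicates 2 and 3, were those with the highest 3′ minus 5′ index. With that index as a covariate the Itgam difference was -0.17 (95% interval -0.61 to 0.28, adjusted p = 0.70 in limma). Itgam passed only without AKR F1 replicate 1 and without DBA F1 replicate 3 among the fits that left out 1 array, at differences from -1.33 to -0.75 over the 6. Markers of the cells that carry it did not all move with it: of 9 neutrophil markers Cxcr2, a chemokine receptor gene, was lower and none was higher (list median 0.04), with list means from 12.70 to 12.90 in AKR F1 and from 12.59 to 12.88 in DBA F1. Of 10 monocyte and macrophage markers 4 were higher (C1qa, C1qb, C1qc and Mertk) and 1, F13a1, was lower (list median 0.14). The list means ran from 9.67 to 9.82 in AKR F1 and from 9.48 to 9.65 in DBA F1. Ccr2 of this list differed by -0.50 without overlap of the groups and did not pass (adjusted p = 0.072 in limma). The part of cell numbers in the Itgam difference was not tested.

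Itgax, the neighbour of Itgam and a chain of dendritic cells and macrophages, was at 6.90, 7.05 and 6.84 in AKR F1 and at 6.79, 6.68 and 6.27 in DBA F1. The groups did not overlap and the difference was 0.35 (95% interval 0.03 to 0.68), which did not pass (adjusted p = 0.13 in limma). Itgal, the chain of LFA on lymphocytes and other leukocytes that binds ICAM molecules, was at 9.68, 9.78 and 9.64 against 9.65, 9.57 and 9.10 (difference 0.26, 95% interval -0.07 to 0.59), with DBA F1 replicate 3 lowest. It overlapped between the groups, and its second probe set differed by 0.34.

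Itgb7, the beta chain of gut-homing lymphocytes and mast cell precursors, was at 8.07, 8.21 and 8.23 against 7.87, 7.87 and 7.32. The groups did not overlap, and the difference of 0.49 (95% interval 0.14 to 0.83) did not pass (adjusted p = 0.066 in limma). Its partner Itgae, which binds E-cadherin, lay below the lower quartile of probe sets, between 3.39 and 3.69, and differed by 0.14.

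The platelet receptor chains did not pass. Itga2b was at 10.76, 11.33 and 11.19 in AKR F1 and at 10.66, 10.95 and 10.38 in DBA F1, a difference of 0.43 (95% interval 0.02 to 0.84, adjusted p = 0.15 in limma). Itgb3 was at 9.64, 10.33 and 10.10 against 9.56, 9.86 and 9.57, a difference of 0.36 (95% interval -0.03 to 0.75, adjusted p = 0.20 in limma). In both genes the groups overlapped and AKR F1 replicate 2 was highest. A second, dimmer Itgb3 probe set differed by -0.33. Of 8 megakaryocyte and platelet markers, Gp5 and Gp9 of the von Willebrand factor receptor were higher and none lower (list median 0.22), with list means from 10.72 to 10.92 in AKR F1 and from 10.43 to 10.86 in DBA F1. The other markers of the list did not pass and had both signs. Gp1bb and Treml1 differed by 0.35 and 0.40 with overlapping groups, and Vwf by 0.09. Gp6 differed by -0.31 without overlap of the groups (adjusted p = 0.074 in limma). Ppbp differed by -0.09 and Pf4 by 0.005. With the 3′ minus 5′ index as a covariate Itga2b differed by 0.02 and Itgb3 by -0.13. With the hybridization controls as a covariate Itga2b differed by 1.18 (95% interval 0.39 to 1.96) and Itgb3 by 1.01 (95% interval 0.22 to 1.81). Neither passed (adjusted p = 0.33 and 0.37 in limma).

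Itgav, which binds vitronectin and activates latent TGF-beta, and the beta chains Itgb5, Itgb6 and Itgb8 did not pass. Itgav was at 8.85, 9.28 and 9.13 in AKR F1 and at 9.33, 8.94 and 9.42 in DBA F1, a difference of -0.14 (95% interval -0.50 to 0.21), and its 5 probe sets ran from -0.66 to 0.21. Itgb5, its partner in the vitronectin receptor, was at 9.03, 9.51 and 9.42 against 9.003, 8.90 and 8.64, a difference of 0.47 (95% interval 0.14 to 0.81, adjusted p = 0.064 in limma). All 4 Itgb5 probe sets were positive, from 0.21 to 0.68, and none passed. Itgb6 and Itgb8 lay below the lower quartile of probe sets and differed by 0.00 and 0.09.

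Itgb4, the partner of Itga6 in epithelial hemidesmosomes, was higher in AKR F1 at a low level. It was at 4.43, 4.48 and 4.50 in AKR F1 and at 3.96, 3.96 and 3.83 in DBA F1, which is 1.47-fold higher (difference 0.55, SE 0.09, adjusted p = 0.0077 in limma). The arrays of each group lay close together and the groups did not overlap. The gene has 1 probe set, which lies below the median probe set.

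Of the talins and kindlins, which switch integrins on, none of 4 measured passed at its brightest probe set (1 at an unadjusted p under 0.05 in limma). Tln1, the talin of blood cells, was at 11.10, 11.23 and 11.36 against 11.12, 10.99 and 10.27, a difference of 0.44 (95% interval -0.03 to 0.90) with overlapping groups and DBA F1 replicate 3 lowest. Tln2 differed by 0.12. Fermt2, the kindlin of stroma and muscle, was highest in DBA F1 replicate 1, at 8.03, and differed by -0.18 (95% interval -0.76 to 0.41). With the muscle mean as a covariate Fermt2 differed by 0.84 (95% interval 0.41 to 1.28), which did not pass (adjusted p = 0.10 in limma). With the hybridization controls it went the other way, to -1.54 (95% interval -2.30 to -0.79), and did not pass either (adjusted p = 0.27 in limma). With the 3′ minus 5′ index it differed by 0.05, so the sign of Fermt2 depended on the covariate.

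Fermt3, the kindlin of blood cells, whose loss causes a leukocyte adhesion deficiency, had probe sets of both signs. The brightest was at 12.45, 12.68 and 12.62 in AKR F1 and at 12.71, 13.02 and 12.997 in DBA F1, a difference of -0.32 (adjusted p = 0.092 in limma). The next were at 0.52 and 0.27 without a call. The dimmest, at 6.88, 7.03 and 7.31 against 6.50, 6.53 and 6.25, differed by 0.64 and passed over probe sets (adjusted p = 0.020 in limma). No direction is given for Fermt3 as a gene.

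In the complex of Ilk, PINCH and parvin, Lims1 was lower and Parvg higher in AKR F1. Lims1, the PINCH adaptor that binds Ilk, was at 10.89, 10.80 and 10.88 in AKR F1 and at 11.32, 11.40 and 11.43 in DBA F1. The arrays of either group lay close together, and the difference was -0.53 (SE 0.08, 95% interval -0.72 to -0.34, adjusted p = 0.0083 in limma), DBA F1 being 1.44-fold higher. The next probe sets, at 9.35, 8.48 and 8.83 against 9.89, 9.92 and 10.35 and at 8.82, 7.67 and 8.23 against 9.68, 9.75 and 9.80, differed by -1.17 and -1.51 and both passed over probe sets (adjusted p = 0.015 and 0.0093 in limma). In these AKR F1 replicate 2 lay lowest. The 2 dimmest Lims1 probe sets differed by 0.01 and 0.64 and did not pass.

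**Figure D4:**
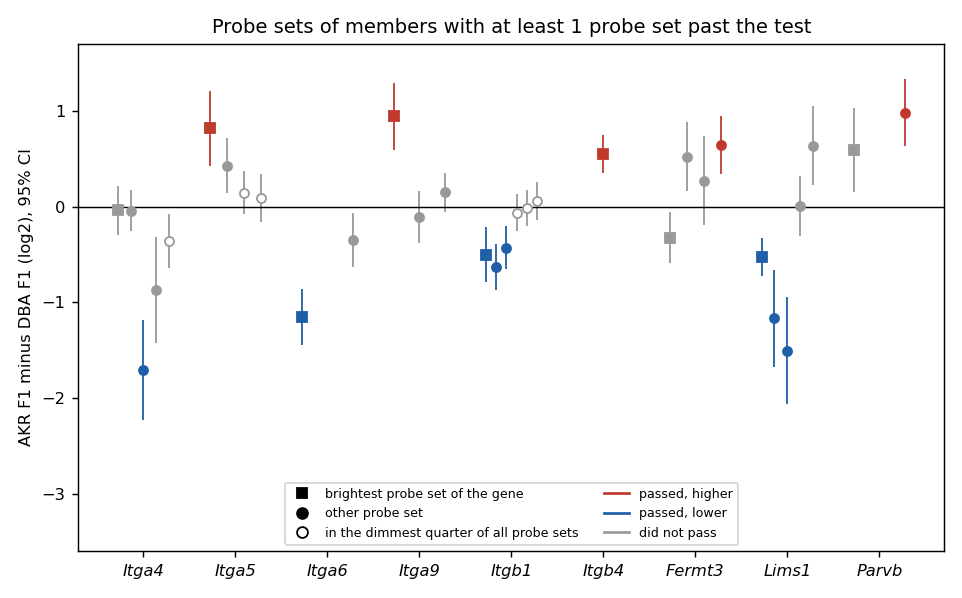
Difference between AKR F1 and DBA F1 (log2) with its 95% confidence interval for every probe set of the 9 members with at least 1 probe set past the test over probe sets, from brightest to dimmest within a gene. The 3 brightest of Itgb1 and of Lims1 all lie below 0, those of Fermt3 lie on both sides, and in Itga4 the third, at -1.71, stands far below the brightest, at -0.04.

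Parvg, the parvin of blood cells, was at 10.03, 10.02 and 9.91 in AKR F1 and at 9.64, 9.57 and 8.95 in DBA F1, which is 1.52-fold higher (difference 0.60, SE 0.17, adjusted p = 0.048 in limma). The groups did not overlap, DBA F1 replicate 3 was lowest, and the second probe set differed by 0.29 without a call. Without DBA F1 replicate 3 the difference of Parvg was 0.39 and passed. Over all probe sets the same Parvg values did not pass (adjusted p = 0.058 in limma). Parvg also did not pass with median centring or with the mean of its probe sets, and it passed in 8 of 17 alternatives. Its neighbour Parvb was at 10.48, 11.05 and 10.98 against 10.37, 10.47 and 9.90, a difference of 0.59 that did not pass (adjusted p = 0.068 in limma). The dimmer Parvb probe set, at 6.86, 6.48 and 6.49 against 5.61, 5.88 and 5.39, differed by 0.98 and passed over probe sets (adjusted p = 0.0083 in limma). With the mean of its probe sets Parvb was called higher. Both neighbours thus had positive differences at all 4 of their probe sets. Ilk differed by 0.29 (95% interval -0.07 to 0.66), Parva by 0.24 and Pxn by 0.28 (95% interval -0.08 to 0.65), with overlapping groups.

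Probe sets of a member often disagreed. Of the 82 probe sets 5 were higher and 8 lower in the test over all probe sets. This is 15.9%, against 12.3% of all 45037, of which 5.57% were higher and 6.73% lower. Of 23 members with several probe sets 10 had both signs, while no member had a call in both directions.

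Of the other genes of the pathway, 10 of 79 measured were higher and 4 lower (17.7%, against 15.2% of all genes), with a median of 0.09. Above the median probe set 13 of 69 passed (18.8%), against 22.3% of all such genes, so this share too lay near that of other genes of their brightness. Among 22 genes that control integrin activation 2 were higher and 2 lower (median -0.01). Rasgrp2, the exchange factor that loads the GTPase Rap with GTP in platelets and leukocytes, was 1.80-fold higher in AKR F1 (10.13, 10.48 and 10.35 against 9.57, 9.62 and 9.21, adjusted p = 0.0089 in limma), and with the mean of its 4 probe sets it differed by 0.37 and did not pass. Its substrate Rap1a was lower, at 11.83, 11.80 and 11.87 against 12.29, 12.28 and 12.31 (difference -0.46, adjusted p = 0.011 in limma), the arrays of either group lying close together. Dok1, an adaptor that competes with talin for beta tails, was higher by 0.36 and Nck1, an SH2 and SH3 adaptor, was lower by a difference of -0.35, which was -0.07 and without a call with the mean of its 3 probe sets. Apbb1ip, the link from Rap to talin, differed by 0.58 and just missed the threshold (adjusted p = 0.051 in limma).

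Among 28 genes of focal adhesions and signalling from bound integrins 3 were higher and 1 lower (median 0.19). Actn4, an actin crosslinker, was 1.84-fold higher (11.04, 11.07 and 11.07 against 10.39, 10.25 and 9.90, adjusted p = 0.0064 in limma). Csk, the kinase that holds Src family kinases off, was 1.52-fold higher and Git1, a paxillin-binding scaffold, 1.46-fold higher. Ptpn12, a phosphatase of focal adhesion proteins, was lower by a difference of -0.35. Ptk2b, the focal adhesion kinase of blood cells, differed by 0.51 and did not pass (adjusted p = 0.055 in limma).

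Among 29 ligands and membrane partners of integrins 5 were higher and 1 lower (median 0.08). Tgfb1, whose latent form is activated by Itgav dimers, was 2.47-fold higher (10.76, 11.002 and 10.92 against 9.96, 9.77 and 9.04, adjusted p = 0.0093 in limma), with a difference of 0.57 that passed when its 2 probe sets were averaged. Icam1, a ligand of Itgal and Itgam with Itgb2, was 1.63-fold higher and Icam4, a red cell ligand of several integrins, 1.65-fold higher. Of 5 erythroid markers Epor and Alas2 were higher and none lower (list median 0.31), with list means from 12.30 to 12.35 in AKR F1 and from 11.84 to 12.13 in DBA F1. Their part in the Icam4 difference was not tested. Cd82, a tetraspanin, was higher by 0.38. Fga, a fibrinogen chain made in liver, was called higher by 0.42 at values from 2.58 to 3.18, below the lower quartile of probe sets. Thbs1, thrombospondin of platelets and matrix, was lower, at 10.29, 10.29 and 10.47 against 10.91, 11.27 and 11.21 (difference -0.78, adjusted p = 0.0071 in limma). Vcam1, the ligand of Itga4 and Itga9 with Itgb1, differed by -0.16 and did not pass, and fibronectin, Fn1, by -0.09.

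**Figure D5:**
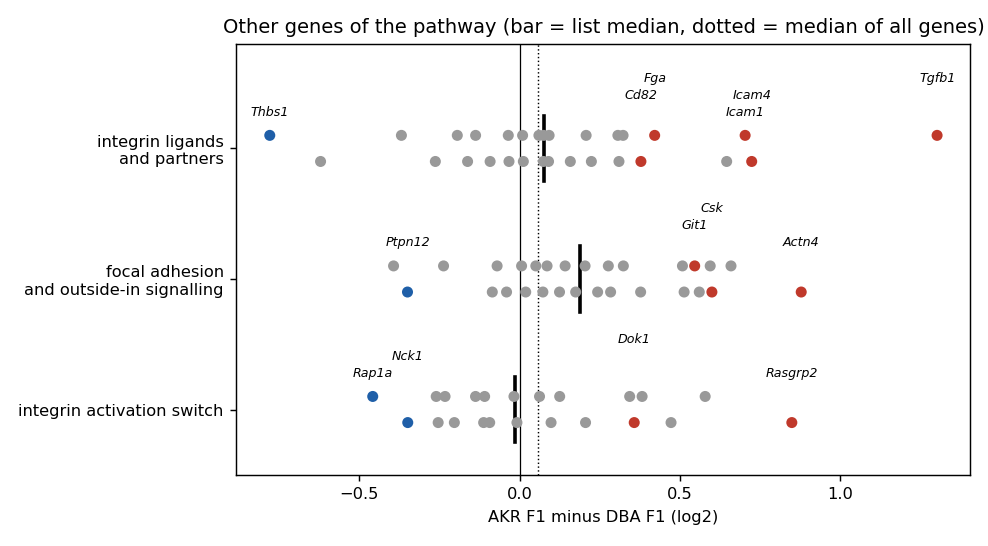
Difference between AKR F1 and DBA F1 (log2, horizontal axis) of 79 genes of integrin activation, signalling and ligands, each point a gene, with list medians as bars and the median of all genes dotted; coloured and named points passed the test. Tgfb1, at 1.30, lies farthest right and Thbs1, at -0.78, farthest left.

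The count of 14 pathway genes became 8, 6 and 6 without AKR F1 replicates 1, 2 and 3, 24 without DBA F1 replicate 1 and 7 without DBA F1 replicate 2. In the same order all genes went from 2771 to 1396, 685, 793, 3248 and 1585. The pathway count was 0 with the 3′ minus 5′ index as a covariate in limma (17 at an unadjusted p under 0.05) and 2 with the muscle mean.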

How the data were processed

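Total RNA of snap-frozen bone marrow was extracted with Trizol, labelled with biotin and put on 1 Affymetrix array for each sample (labels' protocols). Values of the deposited table are log2 expression of 45101 probe sets, already normalized between arrays (upper quartiles 7.34 to 7.43). RMA and MAS5 are both listed, per the submitters' processing notes, and the sources do not say which of them gave these values. Tests ran without the 64 control probe sets. The platform annotation (2016) gives 1 symbol to 34945 probe sets, several to 932 and none to 9160. All 34 measured members matched a RefSeq gene of the same symbol by gene ID. Promoter sequences are from RefSeq (GRCm38.p6).

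The test was limma 3.58.1 in R 4.3.3 (lmFit, eBayes), two-sided, with 4 residual degrees of freedom. Benjamini-Hochberg adjustment ran over all 18193 genes or all 45037 probe sets, with a threshold of 0.05. The script was tested on simulated data. The members and all lists were chosen with earlier results of these data known. Values of every array are given for members past adjusted p 0.05 in the test over genes or with any probe set past it in the test over probe sets, for their beta partners, and for Itga2b, Itga4, Itgal, Itgam, Itgax, Itgb1, Itgb2, Itgb3 and Itgb7. From each pathway list up to 5 genes with the smallest p are named. Array values of Itga8, Itgav, Itgb5 and Tln1, and Cd82, Vcam1 and Fn1, were added after their values were seen. Alternatives were quantile normalization, median centring, filters at the lower quartile or median level, array weights, a variance trend with robust moderation, a replicate block, covariates, other thresholds, averaging all probe sets of a gene and leaving out each array. The number of arrays, 3 per group, limits the precision, and no batch is given in the labels.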

Additional observations from a re-analysis of the deposited data

How the results depend on the processing

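The counts of members, member probe sets, pathway genes, all genes and all probe sets stayed within 1.5 times under quantile normalization, median centring, both filters on level and a robust fit with a variance trend, and those of genes also when probe sets were averaged by gene. Array weights gave 13 members, 22 member probe sets and 28 pathway genes. The replicate number as a block gave 9 members, which included all 8 called without it, 21 member probe sets, 14 pathway genes and 2357 genes. Same-numbered arrays did not deviate together (correlations of 0.01, -0.06 and 0.07 over genes). A pairing by number was thus not shown, though a correlation over all genes cannot exclude it. At an adjusted p under 0.01 there were 4 members, 7 member probe sets, 5 pathway genes, 526 genes and 1214 probe sets, and under 0.1 there were 13, 26, 26, 4243 and 8489. With the 3′ minus 5′ index as a covariate 0 members, 0 member probe sets, 0 pathway genes, 26 genes and 231 probe sets passed in limma, at an unadjusted p under 0.05 6 members, 20 member probe sets and 17 pathway genes. With the muscle mean these were 1, 1, 2, 58 and 56. With the hybridization controls, a covariate chosen after seeing the data, they were 0, 0, 0, 1 and 10, with 9 members, 21 member probe sets and 10 pathway genes unadjusted. In each covariate fit 1 more coefficient was estimated from 6 arrays. The unadjusted counts have no share of all genes beside them, so nothing is read from them.

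Leaving out 1 array gave 4 to 13 members, 8 to 19 member probe sets, 6 to 24 pathway genes, 685 to 3248 genes and 1683 to 5581 probe sets, lowest without AKR F1 replicate 2 or 3. Signs turned in 29 of 569 fits of single members, in 11 members, and in 5 of 304 fits of the named pathway genes, in 3 genes, none with a call. With array weights Itga4 became 0.0555, Fermt2 0.072 and Itgav 0.0327, and with quantile normalization Itgb6 -0.0242. With the 3′ minus 5′ index Itgb3 became -0.13, Fermt2 0.0526, Itgae -0.0195 and Itgb6 -0.0482. With the muscle mean Fermt2 became 0.842, Itga10 0.442, Itgav 0.170 and Fn1 0.272. With the hybridization controls Fermt3 became 0.0398, Itgb2 -0.109, Itga7 -0.299, Itgb6 -0.184, Parva -0.250, Apbb1ip -0.120 and Vcam1 0.0091. With probe sets averaged by gene Fermt3 became 0.279 and Itgb6 -0.0114. When 1 array was left out, Itga4 ran from -0.102 to 0.0405, Itga7 from -0.0918 to 0.264, Itga10 from -0.339 to 0.104, Itgb2 from -0.0577 to 0.210, Itgb6 from -0.0542 to 0.0448, Fermt2 from -0.476 to 0.124 and Fn1 from -0.208 to 0.0789. Called pathway genes that moved by over 1.5 times with a covariate were Ptpn12, from -0.35 to -0.55 with the muscle mean and to -0.02 with the hybridization controls, and with the latter Thbs1, from -0.78 to -0.38, and Git1, from 0.55 to 0.86. Beyond the construction of each alternative the cause was not tested. The signal of dim probe sets such as Itgb4, Itgb6, Itgb8 and Itgae limits what can be said of them.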
